A study of Mus musculus with 7 samples.

Results

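The genes examined here in hippocampal microglia answer to temperature and protein damage: 8 heat-shock chaperone genes (Hsp90aa1, Hsp90ab1, Hspa8, Hspa1a, Hspa1b, Hsph1, Dnajb1 and Hspe1) and 2 genes of cold-inducible RNA-binding proteins (Cirbp and Rbm3). They were matched by GENCODE M21 symbol, and all 10 were found among the 55401 identifiers of the count table and among the 19199 genes tested. The genes were chosen by their library-size-scaled counts in the EYFP and ATG7 libraries. Their values in that comparison are therefore a description and carry no test. Genes outside the 10 are tested in the fit over all genes. The lists they come from were, however, also chosen with earlier results of these data known.

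Chaperones bind proteins that are unfolded or partly folded and use ATP to help them fold. HSP70 proteins (Hspa8, Hspa1a, Hspa1b) take up a client with the help of a J-domain protein (Dnajb1) and release it with the help of an exchange factor (Hsph1), and HSP90 proteins (Hsp90aa1, Hsp90ab1) finish kinases, receptors and other signalling clients. When damaged proteins or heat occupy the chaperones, heat-shock factor 1 is set free and binds heat-shock elements, arrays of the triplet GAA and its reverse TTC, in the promoters of these genes. Cirbp and Rbm3 encode small glycine-rich proteins with an RNA-recognition motif, whose transcripts are known to accumulate under mild cold and to decline when cells are warmed, and which in mammals follow the daily rhythm of body temperature.

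The libraries came from C57BL/6 mice aged 6 to 8 weeks, described as male in the series title. In all of them AAV-RAM-Cre had been delivered to the dorsal dentate gyrus, so that Cre came under the RAM promoter, which is active in neurons that take part in an experience. The 4 EYFP libraries (EYFP 1 to 4) had AAV-Dio-EYFP with it, and the 3 ATG7 libraries (ATG7 1 to 3) had AAV-Dio-Atg7-Flag, which overexpresses the autophagy gene Atg7 in engram neurons. The manipulated cells were neurons and the cells sequenced were CD11b-bead-enriched cells of the hippocampus, so the comparison asks what differs in microglia when engram neurons overexpress ATG7. Mice were perfused with ice-cold saline and the tissue was digested with an enzyme mix before the bead step, in all groups. The labels give neither the time of day at collection nor the body temperature of the mice. They do not say whether a library is 1 mouse or a pool, so the tests measure the spread between libraries.

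Total counts ranged from 35934210 to 55217119 per library, and the members had between 1279 and 95796 counts each, so counting error was small beside the spread between libraries. Microglial identity was present: 9 markers including P2ry12, Tmem119 and Cx3cr1 summed to 21450.1 to 26146 CPM in EYFP and 21156 to 25892 CPM in ATG7 (CPM are counts scaled to library size by trimmed means of M values). The 7 choroid plexus markers, led by Ttr, summed to 54642 to 72083 CPM in EYFP and 46269.9 to 60963 CPM in ATG7, so RNA of other cells was abundant too. In bulk RNA of this kind, fewer cells of a type and less RNA per cell cannot be told apart. EYFP 3 had 939 CPM of Xist although the series describes male mice, and values without EYFP 3 are therefore given as well. Atg7 was at 35.6 ± 1.68 CPM (SD, n = 4) over EYFP libraries and 34.9 ± 2.76 CPM (SD, n = 3) over ATG7 libraries, which checks nothing about the transgene in neurons.

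Promoter windows of 300 bases, from 250 before to 50 after an annotated start, were found in RefSeq (GRCm38.p6) for 6 of the 10 members, 9 windows in all. The windows of 4 genes are shown because they hold letter matches to elements that are known from responses to heat or cold. Capitals mark matches to GAANNTTC or TTCNNGAA, which are 2 facing or opposed units of a heat-shock element, and to TCCCCGCC, the letters given for a mild cold responsive element of Cirbp, each searched on both strands. Each window is written 5′ to 3′ on the strand of its gene: Hspe1 at chr1:55087898-55088197 (plus strand), Hsph1 at chr5:149636287-149636586 (minus strand), Hspa1a at chr17:34972107-34972406 (minus strand) and Cirbp at chr10:80167589-80167888 (plus strand).
Hspe1: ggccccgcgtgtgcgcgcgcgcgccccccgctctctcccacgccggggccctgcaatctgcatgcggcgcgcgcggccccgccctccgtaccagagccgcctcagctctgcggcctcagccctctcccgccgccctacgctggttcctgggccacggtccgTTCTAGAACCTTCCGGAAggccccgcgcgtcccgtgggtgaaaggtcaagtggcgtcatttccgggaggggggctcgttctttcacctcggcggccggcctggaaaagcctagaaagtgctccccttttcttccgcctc
Hsph1: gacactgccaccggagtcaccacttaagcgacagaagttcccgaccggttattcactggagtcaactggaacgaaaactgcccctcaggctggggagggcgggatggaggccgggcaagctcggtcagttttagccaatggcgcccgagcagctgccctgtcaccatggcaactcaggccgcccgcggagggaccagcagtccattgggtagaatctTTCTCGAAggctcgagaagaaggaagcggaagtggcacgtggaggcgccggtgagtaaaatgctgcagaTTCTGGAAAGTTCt
Hspa1a: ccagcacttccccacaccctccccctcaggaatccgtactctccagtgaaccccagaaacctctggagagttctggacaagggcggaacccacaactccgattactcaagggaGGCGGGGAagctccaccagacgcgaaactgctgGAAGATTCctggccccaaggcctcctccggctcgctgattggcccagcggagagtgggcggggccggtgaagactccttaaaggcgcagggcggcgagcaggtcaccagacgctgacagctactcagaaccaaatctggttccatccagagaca
Cirbp: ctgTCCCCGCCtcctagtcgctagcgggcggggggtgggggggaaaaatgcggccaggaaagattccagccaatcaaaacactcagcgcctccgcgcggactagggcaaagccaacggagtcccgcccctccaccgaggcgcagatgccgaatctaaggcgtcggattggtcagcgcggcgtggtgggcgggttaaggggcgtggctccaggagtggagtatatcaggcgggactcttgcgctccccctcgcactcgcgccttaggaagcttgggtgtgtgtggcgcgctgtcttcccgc

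In Hspe1 the matches run together into an unbroken array, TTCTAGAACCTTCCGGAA, at bases 162 to 179 of the window. Hspe1 and Hspd1 are transcribed away from each other, and the same array lies in a window of Hspd1 read from its other strand. Hsph1 had an opposed pair at bases 218 to 225 and a run of 3 units, TTCTGGAAAGTTC, at bases 287 to 299. Hspa1a had a facing pair at bases 147 to 154, and the window of Hspa1b differed from it at 4 of 300 positions and held the same matches. A match of 2 units was present in 4 of the 6 members with a window and in 17.0% of the 27025 genes with one. A run of 3 units in either orientation (GAANNTTC with a further GAA after 2 free bases, or TTCNNGAA with a further TTC after 2 free bases, so that it contains the shorter matches) was present in 2 of the 6 and in 0.662% of all genes. The letters TCCCCGCC were found at bases 4 to 11 of the Cirbp window shown. The other Cirbp window, at chr10:80167921-80168220, held no match to any of these elements. In the reverse orientation the letters were found in the windows of Hspa1a and Hspa1b and in 1 of the 2 Dnajb1 windows. They were present in 6.19% of all genes. These are letter matches and not measured binding.

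Across the members, the chaperone transcripts were more abundant in ATG7 libraries and the cold-inducible transcripts less abundant. The fitted log2 fold change (ATG7 minus EYFP) was above 0 in 8 of 8 chaperone genes, with a median of 0.47, and below 0 in Cirbp and Rbm3, with a median of -0.42. Over all genes tested the median was -0.00365, and 49.2% were above 0. The libraries of the groups did not overlap in 5 of the 8 chaperone genes, against 6.33% of all genes tested that had every ATG7 library above every EYFP library. Both cold-inducible genes had every ATG7 library below every EYFP library, as had 4.91% of all genes. By the edgeR quasi-likelihood fit over all genes, 1 of the 10, Cirbp, had a Benjamini-Hochberg adjusted p under 0.05, where 0.755% of the genes tested had one. DESeq2 gave 5 of the 10 (Hsp90ab1, Hspa8, Hsph1, Cirbp and Rbm3), where it called 3.61% of genes. Its calls were 3 chaperones higher, against 2.51% of genes, and both cold-inducible genes lower, against 1.1%. At an unadjusted edgeR p under 0.05, 5 members were higher and 2 lower, against 6.27% and 5.71% of genes. Since the choice of members used this contrast, nothing is read from these counts.

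**Figure D1:**
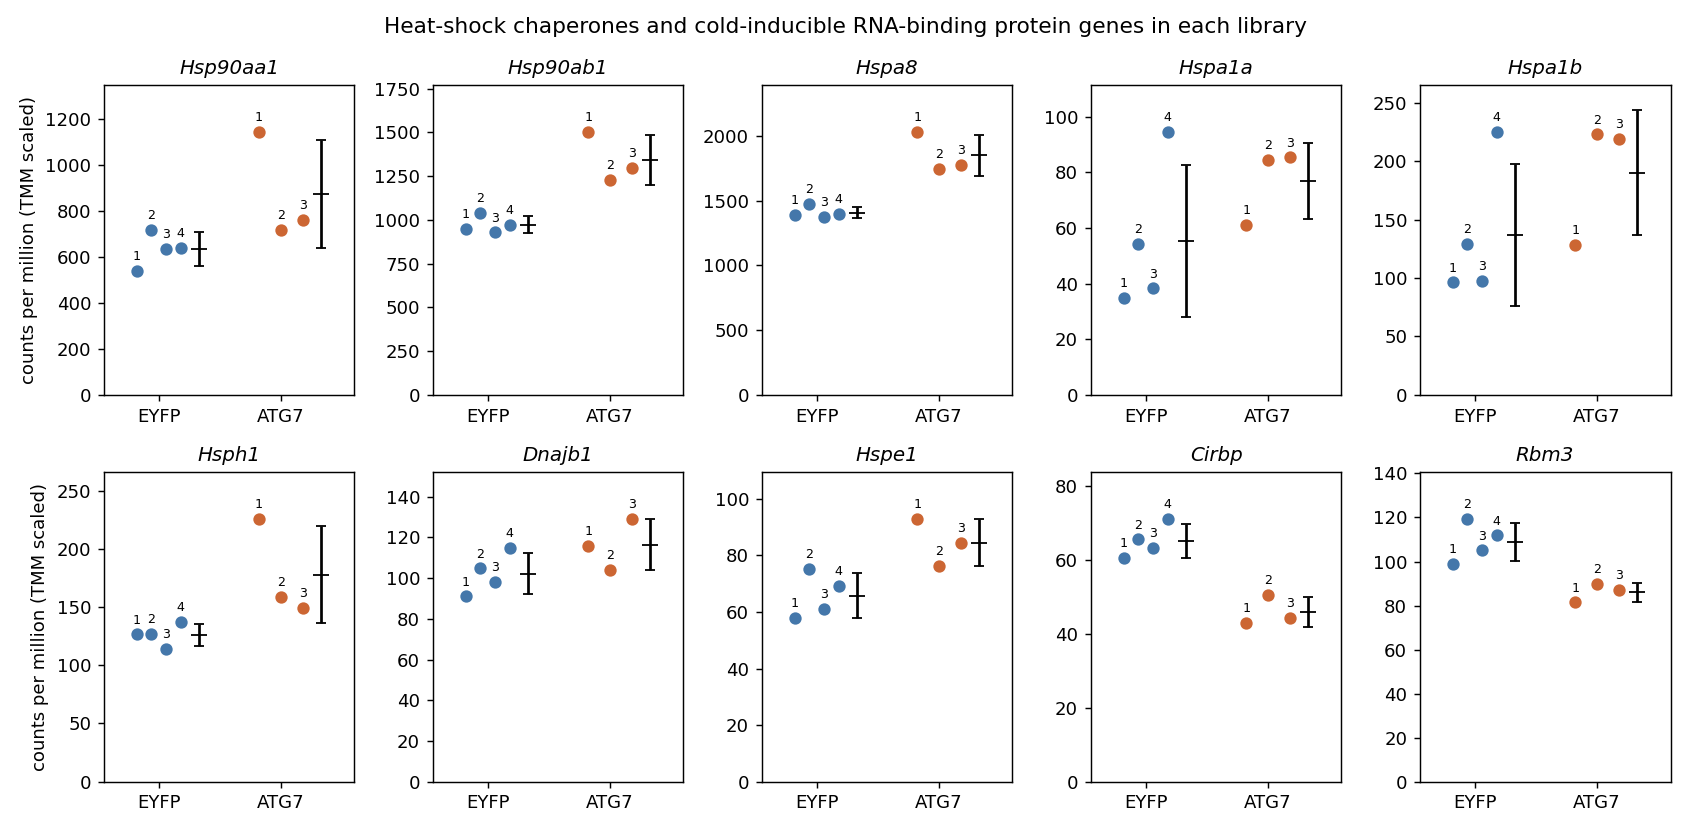
CPM (y axis, from 0) of the 10 members in the 4 EYFP libraries (blue) and 3 ATG7 libraries (orange), with the replicate number above each point and the group mean ± SD as a black bar. ATG7 1 is highest in Hsp90aa1, Hsp90ab1, Hspa8, Hsph1 and Hspe1, EYFP 4 is highest in Hspa1a and Hspa1b, and the 3 ATG7 libraries lie below all EYFP libraries in Cirbp and Rbm3.

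Hsp90aa1 (ENSMUSG00000021270, chromosome 12, 110690605 to 110702728 in GRCm38) encodes HSP90-alpha, the stress-inducible cytosolic HSP90. EYFP 1 to 4 had 540.3, 719, 637 and 641 CPM and ATG7 1 to 3 had 1144, 719.5 and 760.4 CPM. ATG7 1 stood far above the rest, while ATG7 2 was level with EYFP 2, so the groups were separated by less than 1 CPM. The means were 634 ± 73.2 CPM (SD, n = 4) over EYFP libraries and 875 ± 234 CPM (SD, n = 3) over ATG7 libraries, and the fitted log2 fold change was 0.46 (SE 0.158). Without ATG7 1 it was 0.22, and without EYFP 3 it was 0.46.

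Hsp90ab1 (ENSMUSG00000023944, chromosome 17, 45567775 to 45573271) encodes HSP90-beta, the form that most cells make constantly. It had 947, 1039, 929 and 969.9 CPM in EYFP 1 to 4 and 1501, 1229 and 1297 CPM in ATG7 1 to 3. Here all 3 ATG7 libraries were clear of the EYFP libraries, with ATG7 1 again the highest. The means were 971 ± 48.3 CPM (SD, n = 4) over EYFP libraries and 1342 ± 141 CPM (SD, n = 3) over ATG7 libraries, a log2 fold change of 0.47 (SE 0.0942) that was 0.38 without ATG7 1 and 0.44 without EYFP 3. The ratio of Hsp90aa1 to Hsp90ab1 counts, which needs no scaling between libraries, stood at 0.570, 0.692, 0.686 and 0.660 for EYFP 1 to 4 and at 0.762, 0.585 and 0.586 for ATG7 1 to 3. The inducible form was thus highest relative to the constitutive form in ATG7 1, whereas ATG7 2 and 3 lay within the range of the EYFP libraries.

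Hspa8 (ENSMUSG00000015656, chromosome 9, 40800984 to 40810087) encodes HSC70, the constitutive HSP70, which also strips clathrin from vesicles and carries clients to lysosomes in chaperone-mediated autophagy. It was the most abundant member by CPM, with 1388, 1473, 1373 and 1401 CPM in EYFP 1 to 4 and 2029.8, 1744 and 1777 CPM in ATG7 1 to 3. The EYFP libraries lay close together, and all 3 ATG7 libraries were above them. The means were 1409 ± 44.4 CPM (SD, n = 4) over EYFP libraries and 1850.02 ± 157 CPM (SD, n = 3) over ATG7 libraries, and the log2 fold change was 0.39 (SE 0.0892), 0.32 without ATG7 1 and 0.38 without EYFP 3. Per kilobase of annotated exon, the EYFP means were 328 CPM for Hspa8, 324 for Hsp90ab1 and 161 for Hsp90aa1, and from 17.4 to 48.9 for the other chaperone genes. Hspa8 and Hsp90ab1 were the highest on this scale. How close they came depends on the length used. The annotated exons span 4301 bases in Hspa8 and 2999 in Hsp90ab1, but the longest coding transcripts have 2394 and 2520 bases. Before division by length, Hspa8 had more CPM than Hsp90ab1 in every library.

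Levels of several members are uncertain because close copies share their sequence and the handling of shared reads is not given in the sources used here. Of the 50-base words in the longest annotated coding transcript, 74.8% of Hspa8 and 58.5% of Hsp90aa1 also occur in transcripts of other genes, for the most part the processed copies Gm15459 and Gm12346. Those copies had means of 23.6 and 31.8 CPM (Gm15459) and 6.33 and 8.65 CPM (Gm12346) in EYFP and ATG7, with log2 fold changes of 0.43 and 0.45 that differed little from those of Hspa8 and Hsp90aa1. The shared part was 44.8% for Hspe1, 14.8% for Rbm3 and 4.49% for Hsp90ab1, and no word of Hsph1 or Cirbp was shared.

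Hspa1a (ENSMUSG00000091971, chromosome 17, 34969190 to 34972156) and Hspa1b (ENSMUSG00000090877, chromosome 17, 34956436 to 34959238) encode the stress-inducible HSP70, and as neighbouring copies share 62.3% of the 50-base words of Hspa1b. Hspa1a had 34.9, 54.2, 38.2 and 94.4 CPM in EYFP 1 to 4 and 61.1, 84.3 and 85.4 CPM in ATG7 1 to 3. Hspa1b had 96.3, 129, 97.2 and 225 CPM in EYFP 1 to 4 and 128, 223 and 219 CPM in ATG7 1 to 3. In both copies EYFP 4 was the highest of the 7 libraries and the groups overlapped. Of the 2967 exonic bases of Hspa1a, 564 overlap Gm20481 on the opposite strand, which had 0 counts in every library. How reads in that stretch were counted is not given, so the level of Hspa1a is uncertain for this reason too.

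Summed over the 2 copies, the inducible HSP70 had 131, 184, 135 and 319 CPM in EYFP 1 to 4 and 189, 307 and 304 CPM in ATG7 1 to 3. EYFP 4, ATG7 2 and ATG7 3 were thus high, and the other 4 libraries, ATG7 1 among them, were low. The log2 fold change was 0.47 (SE 0.370) for Hspa1a and 0.47 (SE 0.362) for Hspa1b, and of the libraries left out in turn EYFP 4 moved it most, without which it was 0.86 and 0.82. With the replicate number as a block it was 0.87 and 0.79, and without EYFP 1 that of Hspa1a was 0.31. Without EYFP 3 the values were 0.32 and 0.33. ATG7 1, with the most Hsp90aa1, had the least inducible HSP70 of the ATG7 libraries. The ratio of the summed copies to Hspa8 stood at 0.0946, 0.125, 0.0987 and 0.228 for EYFP 1 to 4 and at 0.0933, 0.176 and 0.171 for ATG7 1 to 3, so that the groups overlapped on it too.

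**Figure D2:**
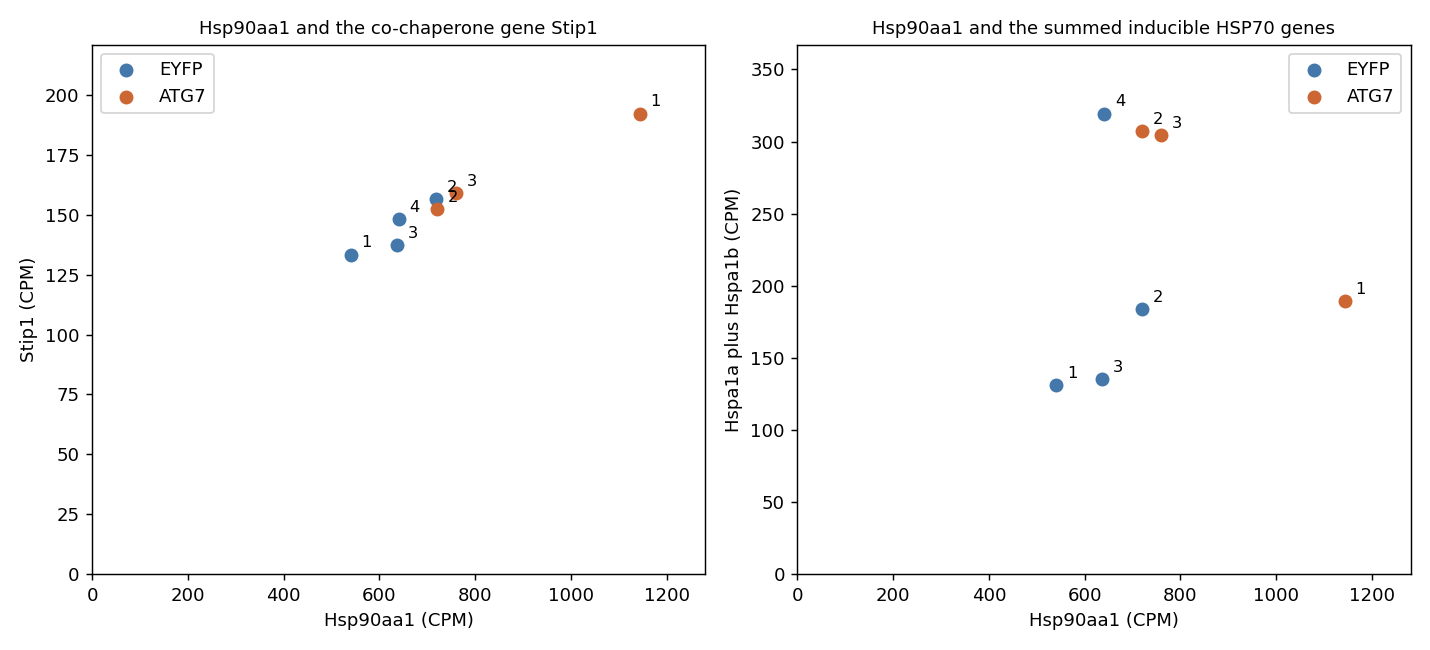
CPM in the 7 libraries (EYFP blue, ATG7 orange, replicate number beside each point), with Hsp90aa1 on both x axes, Stip1 on the left y axis and the sum of Hspa1a and Hspa1b on the right y axis. Stip1 follows Hsp90aa1 up to ATG7 1, while the summed HSP70 copies are highest in EYFP 4, ATG7 2 and ATG7 3.

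Hsph1 (ENSMUSG00000029657, chromosome 5, 149614287 to 149636376) encodes HSP110, which releases the nucleotide from HSP70 and helps to dissolve aggregates. It had 126, 127, 114 and 137 CPM in EYFP 1 to 4 and 226, 159 and 149 CPM in ATG7 1 to 3. Every ATG7 library was above every EYFP library, with ATG7 1 well above the other two. The means were 126 ± 9.44 CPM (SD, n = 4) over EYFP libraries and 178 ± 41.7 CPM (SD, n = 3) over ATG7 libraries, and the log2 fold change of 0.50 (SE 0.131) was the largest among the chaperones. Without ATG7 1 it was 0.29, and without EYFP 3 it was 0.45.

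Dnajb1 (ENSMUSG00000005483, chromosome 8, 83608193 to 83612653), the HSP40 co-chaperone that starts the ATPase cycle of HSP70, differed least. It had 91.0, 105, 98.1 and 115 CPM in EYFP 1 to 4 and 116, 104 and 129 CPM in ATG7 1 to 3, and the groups overlapped, with EYFP 4 above ATG7 2. The log2 fold change was 0.19 (SE 0.0966), and without ATG7 3 it was 0.10 and without EYFP 3 0.16. Neither Dnajb1 window held a 2-unit heat-shock element.

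Hspe1 (ENSMUSG00000073676, chromosome 1, 55088132 to 55091307) encodes HSP10, the lid of the mitochondrial HSP60 chamber. It had 58.0, 75.3, 61.0 and 69.1 CPM in EYFP 1 to 4 and 92.9, 76.2 and 84.3 CPM in ATG7 1 to 3. The groups were separated by less than 1 CPM between EYFP 2 and ATG7 2. The means were 65.8 ± 7.87 CPM (SD, n = 4) over EYFP libraries and 84.5 ± 8.35 CPM (SD, n = 3) over ATG7 libraries, with a log2 fold change of 0.36 (SE 0.100), 0.29 without ATG7 1 and 0.32 without EYFP 3. Its partner Hspd1, which encodes HSP60 and shares the promoter array shown above, had 118, 159, 138 and 154 CPM in EYFP 1 to 4 and 174, 142 and 147 CPM in ATG7 1 to 3, groups that overlapped (log2 fold change 0.12, SE 0.111, edgeR adjusted p = 0.743). The ratio of Hspe1 to Hspd1 counts stood at 0.492, 0.474, 0.442 and 0.450 for EYFP 1 to 4 and at 0.534, 0.537 and 0.574 for ATG7 1 to 3, higher in all 3 ATG7 libraries than in any EYFP library. Hspe1 was chosen by its values in this comparison and Hspd1 was not, so the ratio is a description and nothing is read from it. The exons of the 2 genes overlap by 112 bases on opposite strands.

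The chaperone genes differed in which library was highest. Hsp90aa1, Hsp90ab1, Hspa8, Hsph1 and Hspe1 were each highest in ATG7 1, whereas Hspa1a, Hspa1b and Dnajb1 were highest in EYFP 4 or ATG7 3. The EYFP libraries alone gave another split. Among them Hsph1, Hspa1a, Hspa1b and Dnajb1 were highest in EYFP 4, and Hsp90aa1, Hsp90ab1, Hspa8 and Hspe1 in EYFP 2. As deviations of log2 CPM from the group mean over the 7 libraries, Hsp90ab1 and Hspa8 had a Pearson correlation of 0.99 and Hspa1a and Hspa1b one of 0.97. Between these pairs it was -0.08 for Hsp90ab1 and Hspa1a and -0.41 for Hspa8 and Hspa1b. For Dnajb1 it was 0.69 with Hspa1a, 0.66 with Hspe1, 0.57 with Hspa1b and 0.18 with Hspa8. These are descriptions over 7 libraries that share depth and preparation, and shared reads can raise the value for Hspa1a and Hspa1b. Within EYFP the highest library exceeded the lowest by a factor of 2.70 for Hspa1a and 1.07 for Hspa8.

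**Figure D3:**
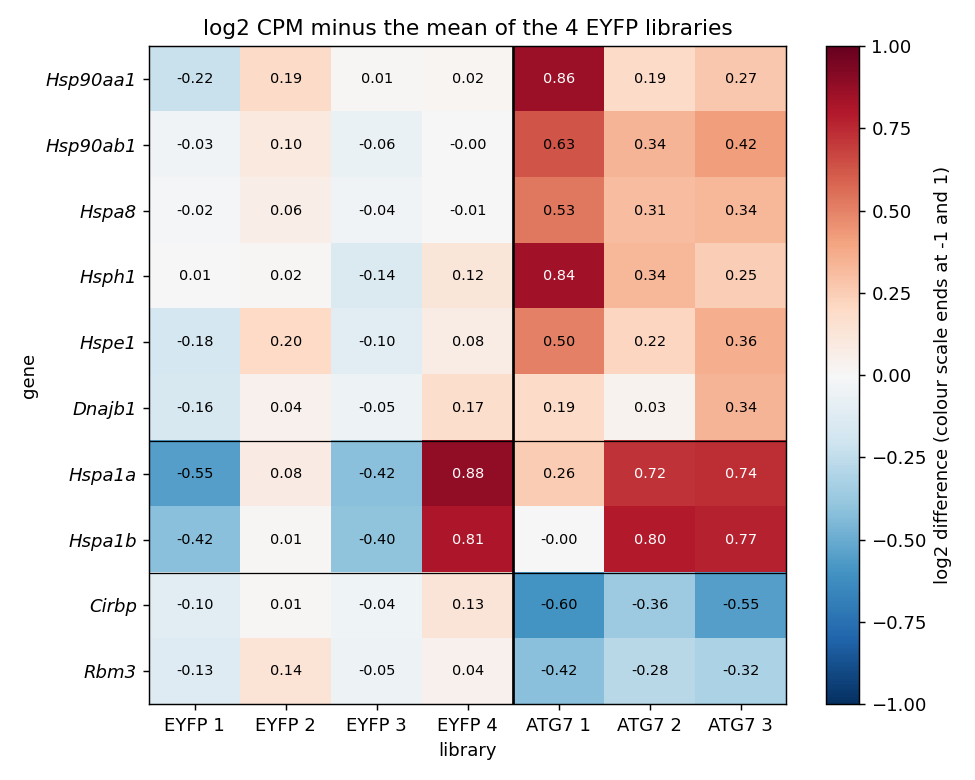
Log2 CPM of each member (rows) in each library (columns) minus the mean of the 4 EYFP libraries for that gene, with red above and blue below that mean and a colour scale ending at -1 and 1. The upper block of chaperones is reddest in ATG7 1, the Hspa1a and Hspa1b rows are red in EYFP 4, ATG7 2 and ATG7 3, and the Cirbp and Rbm3 rows are blue in all 3 ATG7 libraries.

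Cirbp (ENSMUSG00000045193, chromosome 10, 80165985 to 80172786) encodes the cold-inducible RNA-binding protein, which binds 3' ends of transcripts, including those of clock genes, and influences which polyadenylation site is used. EYFP 1 to 4 had 60.6, 65.6, 63.3 and 71.1 CPM and ATG7 1 to 3 had 42.9, 50.7 and 44.3 CPM. All 3 ATG7 libraries were below all EYFP libraries, as in 4.91% of all genes. The means were 65.2 ± 4.49 CPM (SD, n = 4) over EYFP libraries and 46.0 ± 4.14 CPM (SD, n = 3) over ATG7 libraries, a log2 fold change of -0.50 (SE 0.0826) that ranged from -0.58 to -0.46 when single libraries were left out and was -0.52 without EYFP 3.

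Rbm3 (ENSMUSG00000031167, chromosome X, 8138975 to 8145880), the closest relative of Cirbp, is known for protecting synapses in cooled mouse brain. It had 99.0, 119, 105 and 112 CPM in EYFP 1 to 4 and 81.4, 89.7 and 87.0 CPM in ATG7 1 to 3, again with no overlap. The means were 109 ± 8.75 CPM (SD, n = 4) over EYFP libraries and 86.0 ± 4.22 CPM (SD, n = 3) over ATG7 libraries, a log2 fold change of -0.34 (SE 0.0794), ranging from -0.38 to -0.30 with single libraries left out and -0.36 without EYFP 3. ATG7 1 was the lowest of the 7 libraries in both genes. The antisense transcript Rbm3os, which shares 94 exonic bases with Rbm3, was at 0.724 CPM in EYFP and 0.868 CPM in ATG7, under 1 percent of the Rbm3 counts in EYFP. The processed copy Rbm3-ps was at 1.57 and 0.824 CPM.

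Set against each other within a library, which removes the scaling, Hsp90ab1 had 15.6, 15.8, 14.7 and 13.6 counts per count of Cirbp in EYFP 1 to 4 and 35.0, 24.3 and 29.3 counts per count of Cirbp in ATG7 1 to 3. The means of the ratio were 14.9 ± 1.01 (SD, n = 4) and 29.5 ± 5.37 (SD, n = 3). For this pair the ratio was higher in every ATG7 library than in any EYFP library, and highest in ATG7 1. Both genes of the pair were chosen for their difference, and the ratio does not stand for the other chaperones: Hspa1b, for one, was no higher in ATG7 1 than in EYFP 2.

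The rest of the chaperone network was examined through 8 lists with 84 genes, none of them a member. Of these 84 genes, 0 were called higher and 1 lower in ATG7 (edgeR, adjusted p under 0.05), against 0.688% and 0.0677% of all genes tested. At an unadjusted p under 0.05, 10 were higher and 1 lower, and DESeq2 called 3 higher and 1 lower, each beside the shares of all genes given above. Their median log2 fold change was 0.06, with 57 of the 84 above 0, beside -0.00365 and 49.2% over all genes. The median of the 8 member chaperones, which were chosen for their values, was 0.47.

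By family, the median log2 fold changes were 0.09 for 15 HSP90 co-chaperones, 0.06 for 10 HSP70 partners, 0.06 for 15 J-domain proteins and 0.05 for 7 other HSP70 and HSP110 proteins. They were 0.11 for 14 subunits of the TRiC chaperonin and prefoldin, which fold actin and tubulin, -0.01 for 10 mitochondrial chaperones and proteases and -0.06 for 5 heat-shock factors and regulators. None of these 7 families had a gene called by edgeR. The genes with the smallest p, each with its log2 fold change, were Ahsa1, which activates the HSP90 ATPase (0.26, SE 0.0672, adjusted p = 0.127), Bag1, an HSP70 exchange factor (0.27, SE 0.0781, adjusted p = 0.181), and Hscb, a J-domain protein of mitochondrial iron-sulphur cluster assembly (0.44, SE 0.107, adjusted p = 0.105). DESeq2 called Ahsa1, Hscb and Ahsa2, a relative of Ahsa1 named here after its values were seen. In the remaining 4 families they were Hspa12a (log2 fold change -0.20, SE 0.110, adjusted p = 0.521), Dnajc7 (0.21, SE 0.0986, adjusted p = 0.424), Cct5 (0.17, SE 0.0718, adjusted p = 0.362) and Hsf2bp (-0.47, SE 0.220, adjusted p = 0.436). Hsf1, which encodes heat-shock factor 1 and is controlled mainly at the level of its protein, was at 53.6 ± 3.76 CPM (SD, n = 4) over EYFP libraries and 58.0 ± 4.25 CPM (SD, n = 3) over ATG7 libraries (log2 fold change 0.11, SE 0.0789, adjusted p = 0.637).

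Among the 8 small heat-shock proteins, Hspb6 (ENSMUSG00000036854, chromosome 7, 30552178 to 30555443), which encodes HSP20, fell. It had 26.5, 31.8, 29.3 and 33.8 CPM in EYFP 1 to 4 and 19.2, 20.4 and 22.0 CPM in ATG7 1 to 3, with no overlap. The means were 30.4 ± 3.15 CPM (SD, n = 4) over EYFP libraries and 20.5 ± 1.43 CPM (SD, n = 3) over ATG7 libraries, and the log2 fold change was -0.57 (SE 0.0979) (edgeR adjusted p = 0.0262). Its adjusted p was above 0.05 with the replicate number as a block and without EYFP 2, EYFP 4 or any ATG7 library, and ranged from 3.78e-05 to 0.269 over the 15 alternatives. Hspb1, encoding HSP27 and named here after its values were seen, had 21.0, 24.9, 24.0 and 25.2 CPM in EYFP 1 to 4 and 62.9, 25.2 and 40.4 CPM in ATG7 1 to 3, highest in ATG7 1 as the HSP90 genes were (log2 fold change 0.85, SE 0.270, edgeR adjusted p = 0.273).

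**Figure D4:**
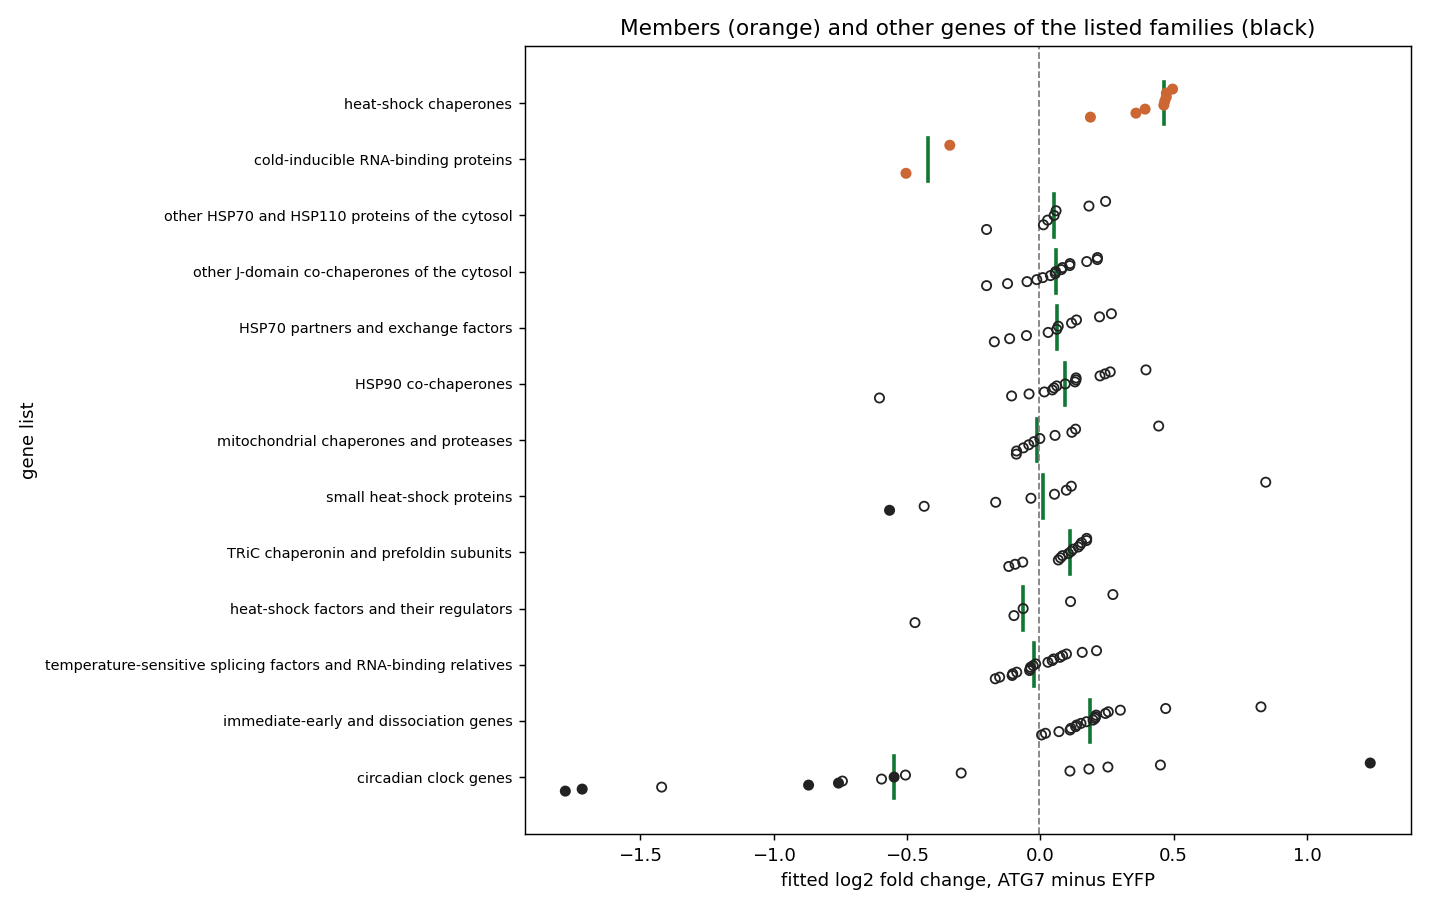
Fitted log2 fold change (x axis, ATG7 minus EYFP) of each gene in the member groups (orange) and the other lists (black, filled where the edgeR adjusted p was under 0.05), with a green line at each list's median and a dashed line at the median of all genes tested. The chaperone members have a median of 0.47. The 8 chaperone and heat-shock factor lists have medians near 0, with single genes from -0.60 to 0.85. The filled black points are Hspb6 and 6 clock genes.

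Of 10259 other genes with a mean of at least 10 CPM, the 2 most like Hsp90aa1 by the Pearson correlation of log2 CPM over the 7 libraries were Stip1 (r = 0.98), whose product HOP hands clients from HSP70 to HSP90, and Fkbp4 (r = 0.97), an HSP90-binding immunophilin. Prmt2 (r = 0.97), St3gal3 (r = 0.96) and Taf10 (r = 0.95) followed. The members Hspe1, Hsph1, Hsp90ab1 and Hspa8 ranked 20, 27, 31 and 39 by the same measure, Dnajb1 ranked 629, and Hspa1a and Hspa1b ranked 2165 and 3620. Cirbp and Rbm3 were near the other end, at 9977 and 9620. All of these members were chosen by their EYFP and ATG7 values, which enter the correlation, so their ranks are a description. As deviations from the group means, the correlation of Hsp90aa1 was -0.27 with Cirbp and 0.03 with Rbm3. It was 0.81 with Hspe1, 0.78 with Hsph1, 0.92 with Hsp90ab1 and 0.94 with Hspa8. Stip1 had 133, 156, 137 and 148 CPM in EYFP 1 to 4 and 192, 152 and 159 CPM in ATG7 1 to 3, with ATG7 1 the highest library as in Hsp90aa1, and the groups overlapped (log2 fold change 0.22, SE 0.0951, edgeR adjusted p = 0.386). Fkbp4 was at 124 ± 7.18 CPM (SD, n = 4) over EYFP libraries and 146 ± 12.4 CPM (SD, n = 3) over ATG7 libraries (log2 fold change 0.24, SE 0.0802, edgeR adjusted p = 0.244).

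The genes most like Cirbp were Sv2a, a synaptic vesicle protein gene (r = 0.99), Herc3, a ubiquitin ligase gene (r = 0.98), Ric3 (r = 0.98), Fggy (r = 0.97) and Rsad1 (r = 0.97). Rbm3 ranked 18 of 10259 with r = 0.94. In the fit over all genes Herc3 was called lower in ATG7, with a log2 fold change of -0.65 (SE 0.0955) (edgeR adjusted p = 0.0142). The other 4 were not called. These genes were picked by their likeness to Cirbp over the same libraries, which favours genes lower in ATG7, so the call is a description. The adjusted p of Herc3 was above 0.05 without EYFP 4, ATG7 2 or ATG7 3 and with the replicate number as a block. Hspa8 and Hsp90ab1 ranked 10218 and 10206 from the top, with r = -0.93 and -0.92. Since the groups differ in Cirbp, a gene that differs between the groups is bound to have a high or low r, and no p is attached.

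A further list held splicing factors and RNA-binding proteins tied to the response to temperature, with the kinase genes Clk1 and Clk4 and the reticulon gene Rtn3. Of its 18 genes, 0 were called in either direction by edgeR, 0 had an unadjusted p under 0.05, and DESeq2 called 0. Their median log2 fold change was -0.02. The smallest p belonged to Rbmx (log2 fold change -0.15, SE 0.0728, adjusted p = 0.448), and Srsf5, a splicing factor gene whose transcript is known to accumulate in the cold, was at 497 ± 51.5 CPM (SD, n = 4) over EYFP libraries and 442 ± 24.5 CPM (SD, n = 3) over ATG7 libraries (log2 fold change -0.17, SE 0.0961, adjusted p = 0.544).

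Cirbp and Rbm3 are known to follow the daily rhythm of body temperature in mammals, and a list of 15 circadian clock genes was set beside them. This list was chosen with earlier results of these data known, so its calls are not independent of that choice. Of 15 clock genes 5 fell (Nr1d1, Dbp, Nr1d2, Hlf and Tef) and 1, Arntl, rose by the edgeR test (adjusted p under 0.05). The rest of the list, Clock and Cry1 among them, was not called. Over all genes tested, 0.0677% were called lower and 0.688% higher. Hlf, a transcription factor of clock output, had 50.2, 49.1, 53.5 and 48.5 CPM in EYFP 1 to 4 and 31.3, 30.1 and 27.9 CPM in ATG7 1 to 3. Arntl, the activator whose transcript peaks in antiphase to those of Nr1d1 and Dbp, had 7.95, 6.61, 6.56 and 7.09 CPM in EYFP 1 to 4 and 13.2, 14.1 and 22.6 CPM in ATG7 1 to 3 (log2 fold change 1.24, SE 0.177, edgeR adjusted p = 0.0122). In both genes no ATG7 library lay within the range of the EYFP libraries. The means were 27.9 ± 7.58 CPM (SD, n = 4) over EYFP libraries and 8.13 ± 1.41 CPM (SD, n = 3) over ATG7 libraries in Nr1d1 (log2 fold change -1.78, SE 0.219, edgeR adjusted p = 0.0105) and 67.1 ± 15.8 CPM (SD, n = 4) over EYFP libraries and 20.4 ± 3.77 CPM (SD, n = 3) over ATG7 libraries in Dbp (log2 fold change -1.72, SE 0.205, edgeR adjusted p = 0.0118). Without EYFP 3, 6 of the 15 were called. With the replicate number as a block, 0 of the 15 were called, and 2 were called without ATG7 2 and 3 without EYFP 4. The time of collection is not given, and its part in the values of the members was not tested.

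**Figure D5:**
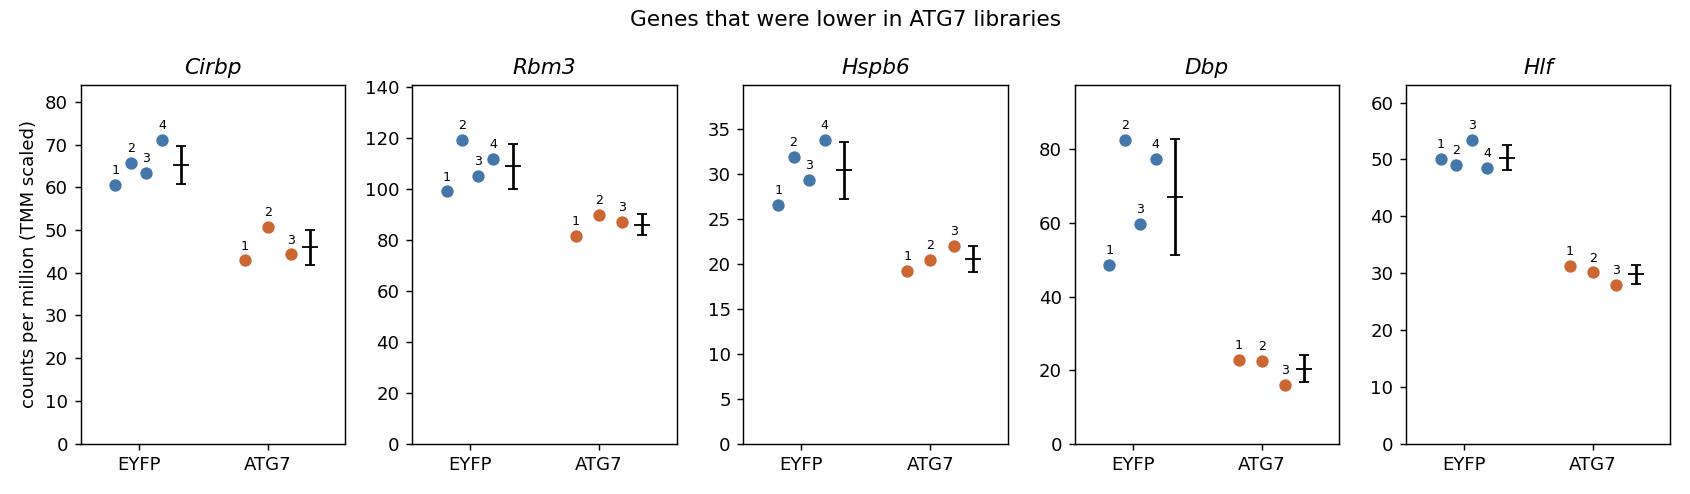
CPM (y axis, from 0) of Cirbp, Rbm3, Hspb6, Dbp and Hlf in EYFP (blue) and ATG7 (orange) libraries, with replicate numbers and the group mean ± SD as a black bar. In each of the 5 genes the 3 ATG7 libraries lie below all 4 EYFP libraries, in Hlf at 27.9 to 31.3 against 48.5 to 53.5 CPM.

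Transcripts that appear when tissue is dissociated were measured because Hspa1a and Hspa1b are known to be induced with them. The 18 immediate-early and dissociation genes, such as Fos, Jun and Egr1, summed to 3264, 3151, 3987 and 4697 CPM in EYFP 1 to 4 and 4203, 4372 and 4275 CPM in ATG7 1 to 3. EYFP 4 was highest on this sum, as it was in Hspa1a and Hspa1b, and EYFP 1 and 2 were lowest. Other libraries did not keep the same order. EYFP 3 was above EYFP 2 on this sum but below it in summed Hspa1a and Hspa1b (135 against 184 CPM). ATG7 1 was near ATG7 2 and 3 on this sum, yet had 189 CPM of the summed copies against 307 and 304 CPM. Of the 18 genes 0 were called by edgeR and 0 by DESeq2. At an unadjusted edgeR p under 0.05, 2 were higher, against 6.27% of all genes tested. The median log2 fold change was 0.19, with 18 of 18 above 0, beside 49.2% over all genes. The smallest p was that of Klf6 (log2 fold change 0.20, SE 0.0856, adjusted p = 0.390). The part of dissociation in the values of the members was not tested.

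Markers of other cells were set beside the members. The 7 choroid plexus markers all had log2 fold changes below 0, with a median of -0.26, and their summed range, given above, overlapped between the groups. The 6 endothelial and mural markers were all above 0, with a median of 0.30 and sums of 374 to 643 CPM in EYFP and 497 to 883 CPM in ATG7. The 5 lymphocyte markers summed to 0.998 to 3.47 CPM in EYFP and 4.07 to 11.8 CPM in ATG7, a low level at which the groups did not overlap. Their median log2 fold change was 1.53. By edgeR 4 of the 5 were higher at an unadjusted p under 0.05, against 6.27% of all genes tested. DESeq2 called 2 of them higher, against 2.51% of genes. The 6 oligodendrocyte lineage markers had a median of -0.45, with 5 below 0 and none called by edgeR or DESeq2. Sums for neurons (21.8 to 44.3 CPM in EYFP and 28.0 to 29.9 CPM in ATG7), astrocytes (295 to 642 CPM in EYFP and 376 to 468 CPM in ATG7), oligodendrocyte lineage (164 to 480.3 CPM in EYFP and 196 to 305 CPM in ATG7) and border and blood myeloid cells (419 to 530.4 CPM in EYFP and 436 to 581 CPM in ATG7) overlapped between the groups. Gad2, a neuron marker, was at 0 in ATG7 3, and every other marker had counts in every library. All but Gad2 were tested, and edgeR called none of the markers in these lists. What these cells contributed to the members, which many cell types express, was not tested.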

How the data were processed

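For 7 RNA-seq libraries the deposited table holds raw read counts, 1 row per gene. The submitters' processing notes name fastp 0.20.1, HISAT2 2.0.5, featureCounts and the builds mm10 and GRCm38. The annotation, the strand setting and the handling of shared reads are not given in the sources used here. Symbols and positions came from GENCODE M21 (GRCm38). Mitochondrial genes held 0 counts.

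ATG7 was compared with EYFP by edgeR 4.0.16 in R 4.3.3 (quasi-likelihood test, two-sided, TMM factors, filterByExpr, robust dispersion, no covariate, Benjamini-Hochberg adjustment over 19199 genes). CPM are counts scaled by TMM library sizes, with a prior count of 2 on the log2 scale. The SE is the absolute log2 fold change over the square root of F. Alternatives were DESeq2 1.42.0, limma-voom (limma 3.58.1), other scalings and filters, the replicate number as a block, and each library left out. Same-group libraries differed by a chi-square of 19.2 to 41.3 per degree of freedom, so none was a duplicate.

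The members and lists were chosen with earlier results of these data known. Named genes were all members, in each list up to 3 called genes with the smallest p or else the 1 with the smallest p, and the 5 genes most like Hsp90aa1 and Cirbp; any other was chosen after its values were seen. A further lymphocyte marker was left out of the list and is not reported here.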

Additional observations from a re-analysis of the deposited data

Results flagged for a closer look

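Of 51 values tested in the 4 EYFP libraries, 4 had a library whose gap to the nearest other passed the 95% limit of Dixon for 4 samples, where chance gives about 2.55. None of the 10 members was among them. EYFP 3 had 939 CPM of Xist, against 0.327 to 0.574 CPM in the other EYFP libraries. It had 27.6 CPM of Ddx3y, against 153 to 169 CPM, and 8.09 CPM of Kdm5d, against 42.3 to 48.4 CPM. The summed neuron markers in EYFP 1 were 44.3 CPM, against 21.8 to 25.1 CPM.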

How the results depend on the processing

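All alternatives were planned. The number of genes called was 145, and it was 297 with no filter (234 higher, 63 lower), 585 with DESeq2 (407 higher, 178 lower) and 0 with the replicate number as a block. With single libraries left out it ranged from 28 (without ATG7 2) to 277 (without EYFP 1), and it was 30 without EYFP 4 or ATG7 3 and 94 without EYFP 2. In the 8 chaperone and heat-shock factor lists the 1 call became 4 with DESeq2 and 0 with the block, and ranged from 0 to 1 with libraries left out. Among clock genes the 6 calls became 0 with the block and ranged from 2 to 7. Same-numbered libraries did not deviate together (correlations of -0.0609, -0.182 and 0.0664). So few pairs cannot settle whether the numbers pair the libraries. All 8 chaperones stayed above 0 and both cold-inducible genes below 0 under all 15 alternatives. The adjusted p of Cirbp was above 0.05 without EYFP 4, ATG7 1 or ATG7 3 and with the block. Hsp90ab1, Hspa8, Hsph1 and Rbm3 came under 0.05 in 9 combinations of gene and alternative. Among 38 other named genes, all 8 that were called lost the call under at least 1 alternative, 28 times in all, and 9 gained one, 12 times in all; 529 of 569 values stayed on their side of the threshold, and none of the called genes changed direction.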

Other observations

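Fkbp5, an HSP90 co-chaperone gene known as a target of glucocorticoid receptors and picked out after its values were seen, was more uneven among the EYFP libraries than the other HSP90 co-chaperones. It had 128, 69.6, 183 and 85.8 CPM in EYFP 1 to 4 and 86.6, 74.0 and 69.5 CPM in ATG7 1 to 3, so EYFP 1 and EYFP 3 stood above the rest, and the log2 fold change of -0.60 (SE 0.335) did not pass (edgeR adjusted p = 0.559). Ahsa2, whose product is a relative of the HSP90 activator Ahsa1, had 22.1, 18.3, 20.3 and 22.3 CPM in EYFP 1 to 4 and 31.6, 25.8 and 24.6 CPM in ATG7 1 to 3, with no overlap (log2 fold change 0.40, SE 0.108, edgeR adjusted p = 0.152, DESeq2 adjusted p = 0.0457). Hspa4l, a relative of Hsph1, had 125 CPM in ATG7 1 and between 74.4 and 87.1 CPM in the other 6 libraries, the same library that was highest in Hsph1, Hsp90aa1 and Hspb1. Bag3, a co-chaperone gene that is known to be induced with Hspa1a, was also picked out after its values were seen. It had 39.9, 38.5, 38.9 and 36.6 CPM in EYFP 1 to 4 and 42.0, 40.5 and 44.3 CPM in ATG7 1 to 3. Bag3 thus varied little among the EYFP libraries and was lowest in EYFP 4, where Hspa1a was highest. Of the 8 member chaperones, 4 had their highest EYFP value in EYFP 4 and 4 in EYFP 2.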
